A study of Mus musculus with 24 samples.

Results

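Hspa5 and Rabepk are adjacent genes on mouse chromosome 2, and their RNA was followed in fibroblasts given tunicamycin. They were selected on their signals in treated and untreated cells, as neighbours that both increase with tunicamycin to different degrees, so those values are given as a description without a test. The array held 1 probe set for Hspa5 (101955_at) and 1 for Rabepk (95895_at), and they were 2 of the 8251 genes that could be named by a single symbol. The differences between CHOP-/- and wild type cells were not used in the choice and were tested.

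RNA of primary mouse embryonic fibroblasts was hybridised to 24 oligonucleotide arrays, 4 in each of 6 groups. The CHOP-/- cells, which lack the transcription factor CHOP encoded by Ddit3, were untreated or were given 2 µg/ml tunicamycin for 4 h or 8 h. The wild type cells were handled in the same 3 ways. The labels give no solvent-only group, no time for the untreated cells, and a passage (3) for only 3 arrays, all of untreated wild type cells. The arrays of a group have the letters A to D. Nothing states that they came from separate cultures, so a p-value here refers to the spread among the arrays, which may be technical.

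Tunicamycin blocks N-linked glycosylation, and unfolded glycoproteins gather in the endoplasmic reticulum (ER). Hspa5 encodes BiP, the HSP70 chaperone of the ER lumen, which binds unfolded chains, works with J-domain partners, and holds the stress sensors PERK, IRE1 and ATF6 in check until unfolded proteins draw it away. Its gene is a textbook target of the unfolded protein response, read by ATF6 and XBP1 through ER stress response elements in its promoter. Rabepk encodes a kelch-repeat protein, also called p40, that binds the GTPase Rab9 and acts in the return of mannose 6-phosphate receptors from late endosomes to the trans-Golgi network.

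In the RefSeq table (GRCm38.p6) Hspa5 lies on the plus strand and Rabepk on the minus strand, and the annotated spans overlap. Ordered by the lower coordinate of each span, no other gene lies between them. The genes therefore run toward each other, and their promoters lie at the far ends of the pair. The 250 bases before each start are shown because these windows are where elements of the stress response could be looked for. In the Hspa5 window (chr2:34771840-34772089, plus strand) capitals mark the run shared with Rabepk and, further on, the ER stress response element. In the Rabepk window (chr2:34799913-34800162, minus strand) capitals mark the shared run.
Hspa5: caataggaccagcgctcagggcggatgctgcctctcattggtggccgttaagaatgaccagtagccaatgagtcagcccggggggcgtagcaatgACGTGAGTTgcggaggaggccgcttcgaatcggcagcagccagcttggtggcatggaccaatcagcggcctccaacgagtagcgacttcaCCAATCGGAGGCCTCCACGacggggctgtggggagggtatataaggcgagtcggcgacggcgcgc
Rabepk: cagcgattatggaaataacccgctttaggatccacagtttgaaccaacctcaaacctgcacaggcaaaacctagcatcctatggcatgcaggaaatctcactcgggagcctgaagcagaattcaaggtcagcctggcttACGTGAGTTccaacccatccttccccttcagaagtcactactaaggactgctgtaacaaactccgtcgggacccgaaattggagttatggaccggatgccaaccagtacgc

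The ER stress response element, searched on both strands as CCAAT and CCACG with 9 bases between them, was present 65 bases before the Hspa5 start, as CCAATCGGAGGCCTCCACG. It was found in 0.113% of 32851 RefSeq promoter windows of the same length and in neither window of Rabepk, which has a second annotated start 121 bases away. The CCAAT letters alone, which also begin that element, occurred in 33.8% of windows, at 4 places in the Hspa5 window and at 1 place in the Rabepk window. The cyclic AMP element core TGACGT occurred in 6.47% of windows and in that of Hspa5, where it overlaps ACGTG. Those 5 letters ACGTG occurred in 16.6% of windows and in those of both genes, 155 bases before the Hspa5 start and 111 bases before the first Rabepk start. In both genes they began the run ACGTGAGTT. At 9 bases it is the longest that the Hspa5 window and the first Rabepk window share in the letters as printed. The opposite strand was not compared. The run was picked from this comparison for its length. It is held by 0.0731% of windows, a share that does not measure how unusual such sharing is. The letters of ERSE-II (ATTGG and CCACG with 1 base between them) and the ATF4-CHOP composite site (TGATGCAA) were in neither gene's windows. Nor were the exact letters TGACGTGG, searched for the unfolded protein response element, or TATAAA. The printed Hspa5 window does read TGACGTGA from 157 bases before the start, and TATAAG nearer the start. These differ from TGACGTGG and TATAAA only in the last letter. All matches describe exact letters only, and other forms or near matches were not searched, so absence of an element is not shown.

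The genotype labels were checked on Ddit3. Its signal was 14.7 ± 12.02 in untreated CHOP-/- cells, 31.6 ± 11.03 after 4 h and 20.5 ± 14.4 after 8 h (SD, n = 4 each), against 299.6 ± 97.4, 3652 ± 722 and 4383 ± 524 in wild type cells at these times (SD, n = 4 each). No CHOP-/- array overlapped a wild type array at any time (two-sided exact permutation p = 0.0286 at each time, the smallest that 4 against 4 allow).

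Of the 12 fibroblast markers 11 had a probe set, with summed signals of 26244 to 39138 in CHOP-/- and 23718 to 36106 in wild type arrays. Endothelial markers (5 genes) summed to 23.6 to 67.6 in CHOP-/- and 24 to 68 in wild type arrays, with Cdh5, Tek and Tie1 under the filter signal of 28.5 on every array. Epithelial markers (6 genes) summed to 191.3 to 366 in CHOP-/- and 212.9 to 377.1 in wild type arrays, where 2 to 4 of them had a group mean above the filter signal while Epcam and Krt5 lay under it on every array. Neural markers (5 genes, Nefl and Nefm under the filter signal on every array) summed to 74 to 123.3 in CHOP-/- and 57 to 163.3 in wild type arrays. Skeletal and cardiac muscle markers summed to 1234 to 2414 in CHOP-/- and 1279.5 to 2289 in wild type arrays, with 5 or 6 of 7 genes above the filter signal in each group and Myh3 under it on every array. Leukocyte markers (6 of 7 with a probe set) summed to 385.2 to 1187 in CHOP-/- and 421.8 to 3145 in wild type arrays, with Cd3e under the filter signal on all of them. Lyz2, a lysozyme gene of macrophages, read 633.5 to 1563 on wild type arrays A and B at all 3 times and 32.7 to 278.3 on the other 18 arrays. Where leaving out those 6 arrays ends a call or changes a count that follows, the value without them is given beside it. The part of other cells in these results was not tested beyond that, and fewer cells of a type cannot be told apart from less RNA per cell.

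The values are deposited linear signals, scaled to a common level on each array, with no unit. Hspa5 had a high signal in untreated cells and was 1.67-fold higher after 8 h than untreated in both genotypes, once the arrays were quantile normalized. By the deposited means it was 1.81-fold higher in CHOP-/- and 1.62-fold higher in wild type cells. In CHOP-/- cells, arrays A to D read 3225, 3861, 3378 and 3792 untreated, 6819, 4549, 4731 and 4288 after 4 h, and 6201, 7333, 5979.9 and 6324 after 8 h. In wild type cells they read 3577, 4603, 4284 and 3683 untreated, 4638, 5875, 6173 and 5087 after 4 h, and 6224, 7017, 5879 and 6999.6 after 8 h. All treated arrays lay above all untreated arrays of their genotype. The 4 h and 8 h arrays overlapped in both genotypes, and in CHOP-/- cells that overlap came from array A at 4 h. The brightest probe set of an array read 5716 to 12405, so that Hspa5 sat in the upper part of the scale. Whether signals are compressed there was not tested.

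The group means of Hspa5 were 3564 ± 311, 5097 ± 1162 and 6459 ± 599 in CHOP-/- cells that were untreated, treated for 4 h and treated for 8 h. They were 4037 ± 489, 5443 ± 706 and 6529.8 ± 570.1 in wild type cells (SD, n = 4 each). After quantile normalization the difference from untreated cells in CHOP-/- cells was 0.38 log2 after 4 h and 0.74 after 8 h (SE 0.101 each). Without array A at 4 h the 4 h value was 0.26. The same differences in wild type cells were 0.56 and 0.74 (SE 0.101 each), and 0.49 and 0.73 without arrays A and B. By 4 h the mean had gained 52.9% of its 8 h increase in CHOP-/- cells, or 33.1% without array A at 4 h, and 56.4% in wild type cells.

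Rabepk was near the bottom of the scale in untreated cells and well above it after 8 h. In CHOP-/- cells, arrays A to D read 23.3, 11.3, 12 and 19.6 untreated, 110.4, 138, 42.3 and 70.5 after 4 h, and 273.4, 322.7, 424.2 and 314.3 after 8 h. In wild type cells they read 8.9, 10.3, 15.9 and 7.7 untreated, 107.1, 132.3, 146.5 and 153.8 after 4 h, and 382.7, 451.2, 540.5 and 374.3 after 8 h. All 8 untreated arrays lay under the filter signal of 28.5 and no treated array did. The 3 times did not overlap in either genotype, and between 8 h and 4 h 6.65% of all genes were wholly higher in CHOP-/- and 5.17% in wild type cells. Among CHOP-/- arrays at 4 h, C and D were lower than all wild type arrays, while A and B lay within the wild type range.

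The mean Rabepk signals were 16.6 ± 5.86, 90.3 ± 42.3 and 333.7 ± 64.1 in CHOP-/- cells and 10.7 ± 3.63, 134.9 ± 20.6 and 437.2 ± 77.0 in wild type cells, untreated, at 4 h and at 8 h (SD, n = 4 each). Since the untreated signals give only a bound, Rabepk in CHOP-/- cells was at least 2.77-fold higher after 4 h and at least 11.5-fold higher after 8 h than in untreated cells. Wild type cells had it at least 4.55-fold higher after 4 h and at least 15.03-fold higher after 8 h, or 5.501-fold and 15.6-fold without arrays A and B. The fitted differences, which depend on the pseudocount of 5.7 added before log2, at 4 h and 8 h were 2.03 and 4.00 log2 in CHOP-/- cells and 3.05 and 4.73 in wild type cells (SE 0.281 each), or 3.27 and 4.74 without arrays A and B. Between 4 h and 8 h, both measured above the filter, Rabepk differed by 1.96 log2 in CHOP-/- and 1.68 in wild type cells. At 4 h it had reached 23.3% of the signal gained by 8 h in CHOP-/- cells and 29.1% in wild type cells.

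Both members had treated arrays wholly above the untreated ones in all 4 comparisons of deposited signals. They were chosen because both rise with tunicamycin. After quantile normalization Hspa5 overlapped in CHOP-/- cells at 4 h, where array C (12.03 log2) lay below untreated array D (12.09). The other comparisons of both members still did not overlap. Among all 5665 genes tested, the CHOP-/- shares wholly higher on normalized values were 3.12% (4 h) and 9.94% (8 h). The wild type shares were 4.55% (4 h) and 11.7% (8 h). Comparisons at 4 h and 8 h in a genotype share their untreated arrays.

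**Figure D1:**
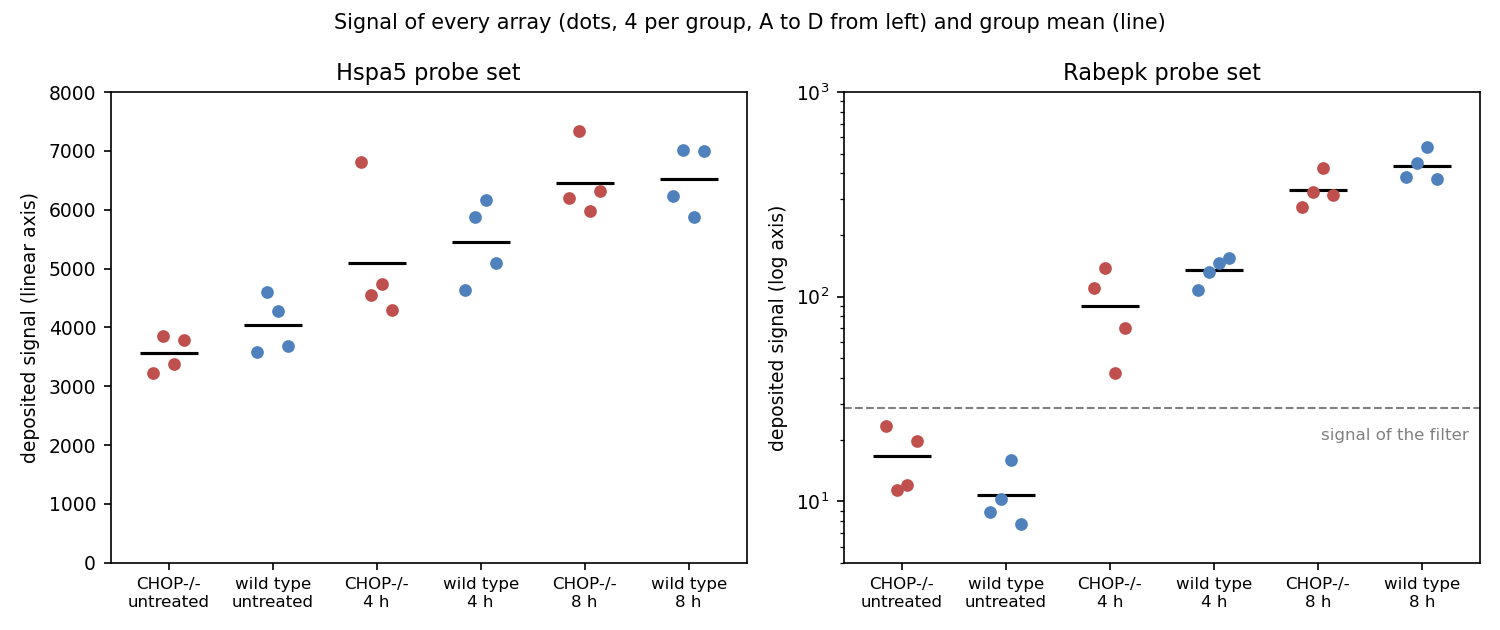
Deposited signal of the Hspa5 probe set (left, linear axis from 0) and the Rabepk probe set (right, log axis) on each of the 24 arrays, by genotype and time, with dots for arrays A to D from left to right and a line for the mean of 4. Hspa5 lies between 3225 and 4603 in untreated cells and between 5879 and 7333 after 8 h, while all 8 untreated Rabepk arrays lie under the dashed filter signal of 28.5 and the 8 h arrays lie between 273.4 and 540.5.

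Hspa5 signals of CHOP-/- cells were not distinguished from those of wild type cells. The CHOP-/- minus wild type difference was 0.01 log2 untreated (95% interval -0.20 to 0.22, limma adjusted p = 0.984), -0.17 after 4 h (-0.38 to 0.04, adjusted p = 0.459) and 0.01 after 8 h (-0.20 to 0.22, adjusted p = 0.977). Two-sided exact permutation tests over arrays gave p = 0.857, 0.314 and 0.857. The difference between the genotypes in the response to tunicamycin was -0.18 (-0.47 to 0.12) at 4 h and 0.00 (-0.29 to 0.30) at 8 h, with limma adjusted p = 0.996 and 0.9999. The 4 h genotype difference was -0.29 (adjusted p = 0.0836) without array A and -0.08 (adjusted p = 0.835) without array C of the CHOP-/- cells at 4 h, the ends of its range with 1 array left out. No Hspa5 test passed the threshold of 0.05, and differences inside these intervals are not excluded. Over all genes 0.989% were called between the genotypes untreated, 2.44% after 4 h and 4.17% after 8 h.

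The mean Rabepk signal was lower in treated CHOP-/- than in treated wild type cells, but the tests over all 24 arrays did not pass. Untreated, both genotypes were under the filter signal, so no fold is given (adjusted p = 0.769, exact permutation p = 0.257). After 4 h the CHOP-/- minus wild type difference was -0.67 log2 (95% interval -1.25 to -0.09). Its unadjusted limma p was 0.0261 and its adjusted p 0.241, and the two-sided exact permutation p was 0.2. With 1 array left out it ran from -0.90 to -0.37, and -0.37 was the value without CHOP-/- array C (adjusted p = 0.638). After 8 h it was -0.38 (-0.97 to 0.20, limma adjusted p = 0.566), with a mean signal 0.763 times that of wild type (exact permutation p = 0.0857).

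The letters A to D were taken to pair the 8 h arrays, because the deviations of same-letter arrays across genes correlated at 0.288 to 0.545. The CHOP-/- signal of Rabepk was 71.4%, 71.5%, 78.5% and 83.97% of the wild type signal in pairs A to D after 8 h. It was lower in 4 of 4 pairs, by a mean of -0.38 log2 (SD 0.0991), with an exact sign-flip p of 0.125, the smallest that 4 pairs allow. Fitted with the letter as a block in these 2 groups alone, the 8 h difference passed (-0.38, limma adjusted p = 0.045), where 11.5% of all genes were called and 5.31% were lower. That call ended without pair A (adjusted p = 0.19), B (0.115) or C (0.14) and stayed without D (0.0498), and with the block in the fit of all 24 arrays adjusted p was 0.545. For Hspa5 the same pairs stood at 99.6%, 104.5%, 101.7% and 90.3% of wild type in deposited signal. After quantile normalization they differed by -0.038, -0.007, -0.012 and 0.108 log2.

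The difference in the Rabepk response was -1.02 log2 at 4 h (95% interval -1.84 to -0.20, unadjusted p = 0.0173, limma adjusted p = 0.996) and -0.74 at 8 h (-1.56 to 0.09, limma adjusted p = 0.9999). These sizes rest on untreated signals under the filter and are not exact. Over all genes 0 passed at 4 h (limma, 227 at an unadjusted p under 0.05) and 2 at 8 h, 0.0353% of those tested. The 8 h count was 0 without wild type arrays A and B. Without wild type arrays A and B, Rabepk differed by -0.93 log2 after 4 h (adjusted p = 0.313) and -0.43 after 8 h (adjusted p = 0.655), and Hspa5 by -0.08 and 0.04 (adjusted p = 0.864 and 0.940). In untreated cells Hspa5 then differed by 0.02 (adjusted p = 0.985), and the adjusted p of Rabepk was 0.893.

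**Figure D2:**
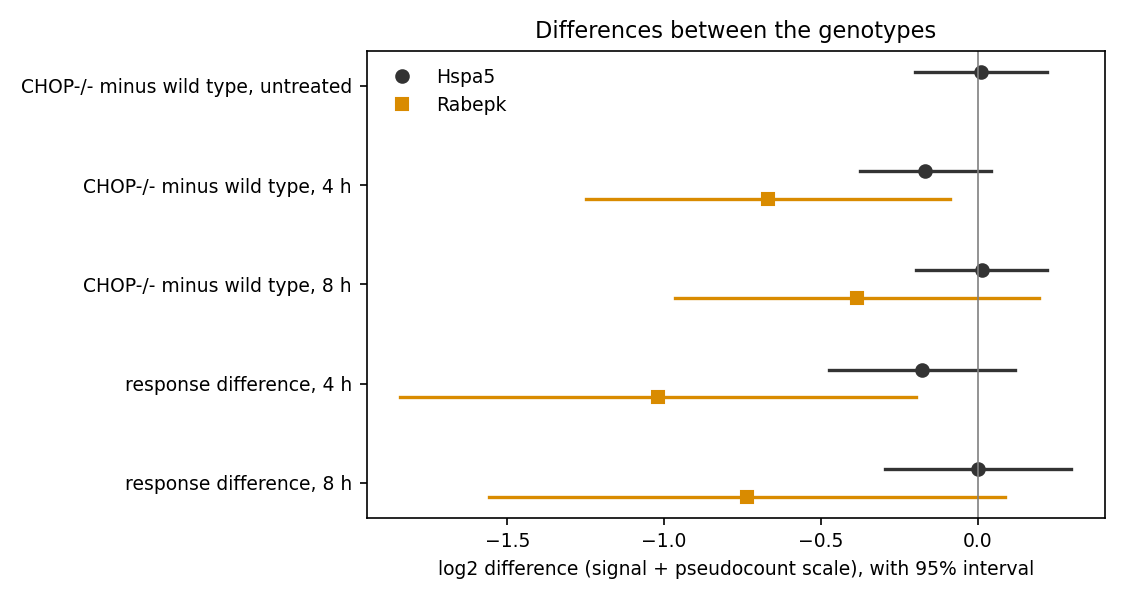
Difference between the genotypes for Hspa5 (circles) and Rabepk (squares) on the log2(signal + 5.7) scale, with 95% intervals from limma over 24 arrays. The upper rows are CHOP-/- minus wild type untreated, at 4 h and at 8 h, and the lower rows the response differences. Rabepk is not drawn untreated, where both genotypes lie under the filter signal. Hspa5 stays between -0.18 and 0.01, while Rabepk runs from -1.02 to -0.38.

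Most of the tested partners that act on BiP itself rose with tunicamycin. Of 10 listed J-domain partners and exchange factors, 8 had a probe set and 7 were tested. After 8 h in CHOP-/- cells 5 of 7 rose and 0 fell (median 1.43 log2, against -0.01 over all genes), where 7.34% of all genes rose. The members called there were Dnajc3, a J-domain co-chaperone (2.42), Dnajb9, which delivers misfolded chains (1.93), Manf, which holds back nucleotide exchange on BiP (1.51), Dnajb11, a co-chaperone for nascent chains (1.43), and Sec63, the J protein of the translocon (0.73). Likewise 5 of 7 in wild type cells rose and 0 fell (median 1.25, against -0.02), where 9.69% of all genes rose (58.1% of the calls were higher, and 68.6% with median centring; for CHOP-/- cells 52.5% and 65.4%). Those were Dnajc3 (2.24), Dnajb9 (2.16), Manf (1.46), Dnajb11 (1.25) and the reductase Dnajc10 (0.42, adjusted p under the threshold in 16 of 21 other settings). After 4 h Manf, Dnajb9 and Dnajc3 had risen in both genotypes, where 0.971% of genes rose in CHOP-/- cells and 1.8% in wild type cells. In CHOP-/- cells Dnajb9 lost that call in 8 and Dnajc3 in 13 of 20 other settings. None of the 3 calls in wild type cells held without arrays A and B, where 4 of 7 were called at 8 h. Over all genes the wild type calls in either direction then numbered 21 at 4 h and 296 at 8 h. With those arrays they numbered 121 and 945.

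Other chaperones and folding enzymes of the ER, 15 tested of 16 with a probe set, rose in 10 cases in CHOP-/- cells (median 0.57) and 10 in wild type cells (median 0.67) after 8 h, with 0 lower. In CHOP-/- cells the oxidase gene Ero1b (3.91), the folding factor gene Creld2 (3.39), and the disulfide isomerase genes Pdia4 (2.00) and Pdia6 (1.23) were among them. Wild type cells showed Ero1b differing by 3.76, Creld2 by 3.42, Pdia4 by 2.23 and Ero1a, the second ER oxidase, by 1.16, all called. Hsp90b1, the ER HSP90, rose by 1.05 in CHOP-/- and 1.10 in wild type cells. Over all genes 7.34% rose after 8 h in CHOP-/- and 9.69% in wild type cells. After 4 h 2 of 15 had risen in CHOP-/- cells, where 0.971% of all genes rose, and 4 of 15 in wild type cells, where 1.8% did. The CHOP-/- count ran from 0 to 3 over the other settings, and Pdia4 lost its call in 13 of 20. Without wild type arrays A and B the wild type counts were 0 at 4 h and 6 at 8 h.

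Degradation from the ER was tested through 9 genes, of which 7 rose in CHOP-/- cells (median 0.92) and 8 in wild type cells (median 0.93) after 8 h, with 0 lower. Of all genes 7.34% rose in CHOP-/- and 9.69% in wild type cells. Herpud1, a ubiquitin-like scaffold of the retrotranslocation complex, rose by 2.99 in CHOP-/- and 3.09 in wild type cells. Sel1l, the partner of the ligase HRD1, rose by 1.71 in CHOP-/- and 1.96 in wild type cells. Derl1, a derlin of the same complex, rose by 1.24 in CHOP-/- and 1.06 in wild type cells. Edem2, which helps mark misfolded glycoproteins, rose by 0.66 in CHOP-/- and 0.93 in wild type cells. After 4 h 2 of 9 had risen in CHOP-/- and 3 of 9 in wild type cells, Herpud1 and Sel1l in both genotypes. At that time 0.971% of all genes rose in CHOP-/- and 1.8% in wild type cells. Sel1l lost its CHOP-/- call in 11 of 20 other settings. Without wild type arrays A and B the wild type counts were 1 at 4 h and 6 at 8 h.

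Of the sensors that BiP binds and the factors below them, 6 were tested, Ddit3 included. After 8 h 4 rose in CHOP-/- cells (median 0.80), namely Eif2ak3, which encodes PERK (1.54), Atf6 (1.10), Atf4 (1.05) and Xbp1 (0.55). Wild type cells had 4 that rose (list median 1.14), Ddit3 (3.87), Eif2ak3 (1.42), Atf6 (1.40) and Atf4 (0.88), while Xbp1 had 0.31 (limma adjusted p = 0.103). Over all genes 7.34% rose in CHOP-/- and 9.69% in wild type cells. Ddit3 is the deleted gene, so the 2 counts of this list do not cover the same genes. After 4 h 2 of 6 had risen in CHOP-/- cells and 4 of 6 in wild type cells, 2 of 6 without arrays A and B. Leaving those arrays out took the wild type calls over all genes at 4 h from 121 to 21. At that time 0.971% of all genes rose in CHOP-/- and 1.8% in wild type cells.

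Of 9 other HSP70 genes tested, 1 rose after 8 h, where 7.34% of all genes rose in CHOP-/- and 9.69% in wild type cells. It was Hspa9, the mitochondrial HSP70 (0.46 in CHOP-/- and 0.55 in wild type cells), and the list median was -0.25 in CHOP-/- and -0.17 in wild type cells. In CHOP-/- cells 0 fell, where 6.64% of all genes fell. Of the 9 genes 3 fell in wild type cells, where 6.99% of all genes did: Hspa1b (-1.09), Hspa1a (-0.93) and Hspa4l (-0.46). Hspa1a and Hspa1b, the stress-inducible cytosolic HSP70 genes, are near-identical copies whose probe sets may read both. Without arrays A and B 2 of 9 were called in wild type cells, Hspa9 (0.55) and Hspa1b (-1.56). Calls over all genes at 8 h then fell from 945 to 296. Hspa1a lost its call in 12 and Hspa4l in 6 of 20 other settings. In CHOP-/- cells Hspa1b had -0.63 (adjusted p = 0.146) and Hspa1a -0.51 (adjusted p = 0.324).

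Of 12 genes of Rab9 and endosome-to-Golgi retrieval with a probe set 10 were tested, and after 8 h 1 was called in each genotype, where 14.0% of all genes were called in CHOP-/- and 16.7% in wild type cells. It was Rab9, the GTPase that Rabepk binds, which fell. Rab9 differed by -0.64 log2 in CHOP-/- cells (limma adjusted p = 0.0213, lost in 5 of 20 other settings) and by -0.81 in wild type cells (adjusted p = 0.00337). The medians of the list were 0.01 in CHOP-/- and -0.09 in wild type cells. After 4 h 0 were called in either genotype, where 1.52% of all genes were in CHOP-/- and 2.14% in wild type cells.

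The letters A to D were also taken to pair the wild type arrays across times, which the labels do not state. With the letter as a block in the 2 wild type groups compared, 28.8% of all genes were called at 8 h, and so were 6 of 7 BiP partners, 11 of 15 other ER chaperones, 9 of 9 degradation genes, 5 of 6 sensors and factors, 5 of 9 HSP70 genes and 1 of 10 retrieval genes. At 4 h the block called 193 of the 5665 genes tested, against 121 in the main fit. It gave 6 of 15 ER chaperones and 1 of 9 HSP70 genes and left the counts of the other lists as above.

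**Figure D3:**
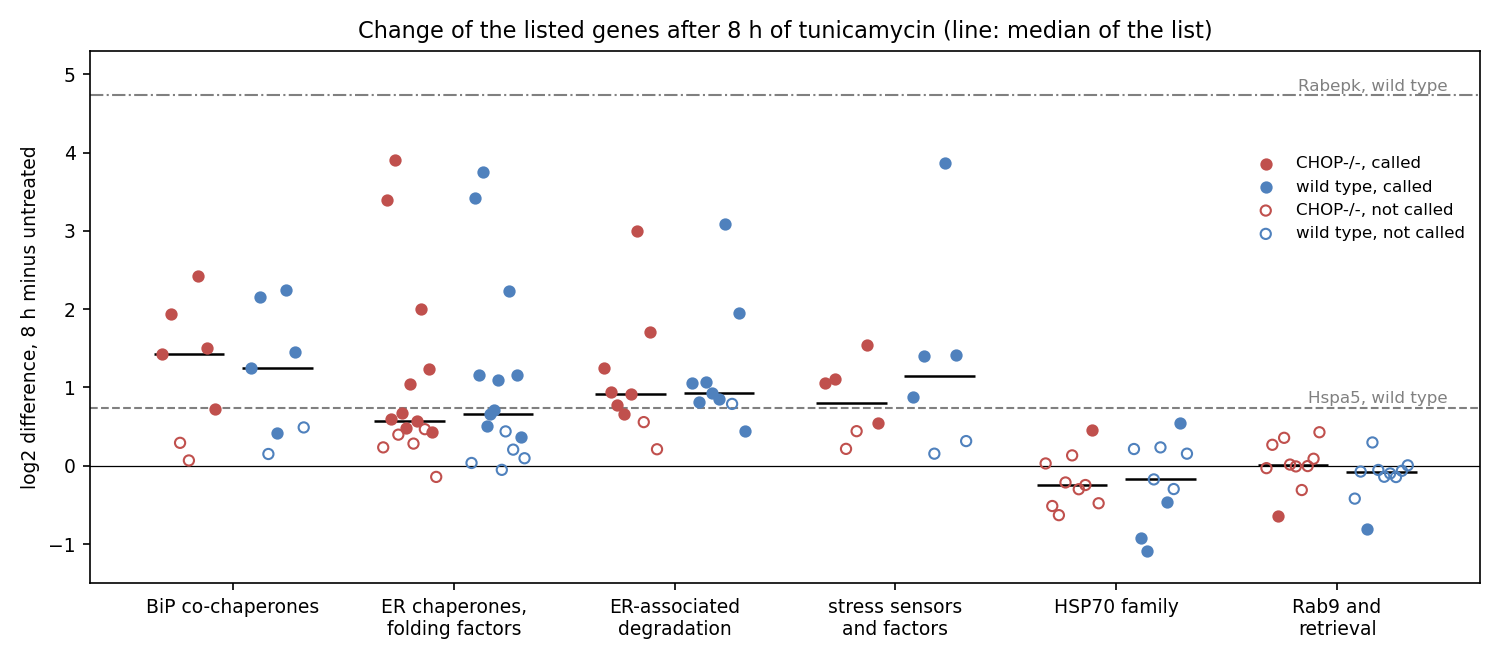
Difference between 8 h of tunicamycin and untreated cells, in log2, for each tested gene of 6 lists, CHOP-/- in red left of wild type in blue. Filled dots passed limma at adjusted p under 0.05, open dots did not, black lines are list medians, and dashed lines give Hspa5 and the fitted Rabepk value in wild type cells. Medians are 1.43 (CHOP-/-) and 1.25 (wild type) for BiP partners and lie between -0.25 and 0.01 for the HSP70 and Rab9 lists.

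Of the 56 genes of these lists that were tested, 5 (8.93%) were called between the genotypes after 8 h, where 4.17% of all genes were. The 5 include Ddit3, the deleted gene. After 8 h Ero1a (-0.79), Sel1l (-0.60), Vcp, the ATPase that pulls substrates out of the ER (-0.58), and Hsph1, a cytosolic exchange factor (-0.72), were lower in CHOP-/- than in wild type cells. Without wild type arrays A and B the calls of Ero1a (-0.89, adjusted p = 0.0276) and Vcp (-0.62, adjusted p = 0.0331) held, and those of Sel1l (-0.52, adjusted p = 0.195) and Hsph1 (-0.52, adjusted p = 0.189) ended. At 4 h 5 of the 56 (8.93%) were called, all lower in CHOP-/- cells (Ddit3, Ero1a, Hspa9, Sel1l and Vcp), where 2.44% of all genes were, and 1 (Ddit3) was called without arrays A and B. None of the 7 BiP partners was called between the genotypes at any of the 3 times.

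The tunicamycin changes of Hspa5 and Rabepk were set beside the 10 nearest tested genes on each side. On the Rabepk side the next tested gene, Fbxw2, is also the next protein-coding gene. On the Hspa5 side Gapvd1 and Mapkap1, with no probe set here, lie between Hspa5 and Pbx3. After 8 h 2 of the 20 neighbours were called in CHOP-/- cells, where 14.0% of all genes were called. These were Fpgs, a folate enzyme gene (0.72, adjusted p = 0.0299), and Rbm18, an RNA-binding protein gene (0.43, adjusted p = 0.0418), calls lost in 6 and 12 of 20 other settings. Wild type cells had 2 of 20 called, where 16.7% of all genes were. St6galnac4, a sialyltransferase gene, was higher (1.12, adjusted p = 0.00147, beside 0.45 in CHOP-/- cells with adjusted p = 0.217), and Gsn, which encodes the actin-severing protein gelsolin, was lower (-0.36, adjusted p = 0.0164). Both calls held without arrays A and B (St6galnac4 1.17, adjusted p = 0.0296, and Gsn -0.41, adjusted p = 0.0418). The medians of the neighbours were 0.05 in CHOP-/- and -0.01 in wild type cells. After 4 h 0 were called in CHOP-/- cells, where 1.52% of all genes were, and 0 in wild type cells, where 2.14% were.

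**Figure D4:**
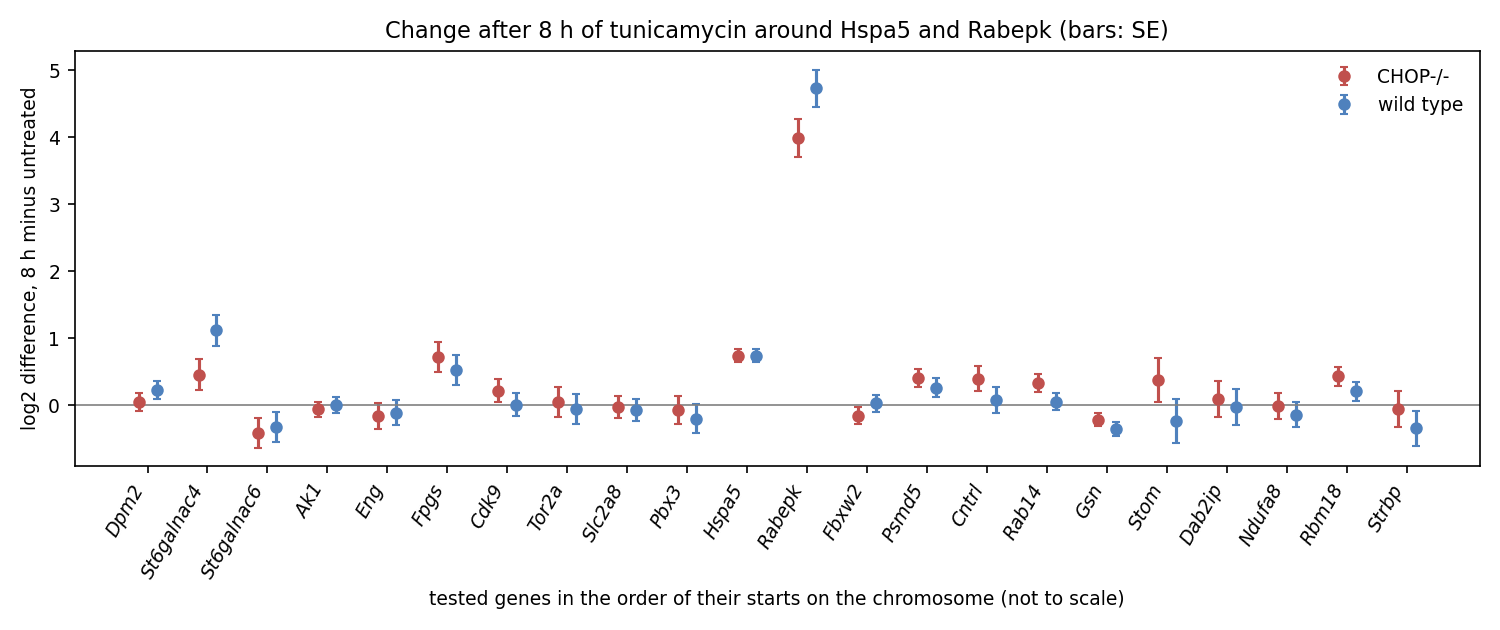
Difference between 8 h of tunicamycin and untreated cells, in log2 with its SE, for Hspa5, Rabepk and the 10 nearest tested genes on each side, in chromosome order and not to scale, CHOP-/- in red and wild type in blue. At the centre Rabepk has a fitted 4.00 in CHOP-/- and 4.73 in wild type cells and Hspa5 has 0.74 in both, while the neighbours' medians are 0.05 in CHOP-/- and -0.01 in wild type cells.

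The files do not give the probe sequences. The Rabepk probe set was designed on an expressed sequence tag, and which part of either transcript a probe set reads is not given. Whether signal of one gene enters the other's probe set was not tested. 

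Over the 24 arrays the normalized values of Hspa5 and Rabepk had a Pearson correlation of 0.942. The 5 genes most like Hspa5 were Dnajb9 (0.971), Rabepk (0.942), Dnajc3 (0.941), Derl1 (0.938) and the amino acid transporter subunit gene Slc3a2 (0.927). Those most like Rabepk were Creld2 (0.972), Piga, which encodes an enzyme of GPI anchor synthesis (0.963), Slc3a2 (0.955), Dnajc3 (0.945) and Hspa5 (0.942). These points share the 6 groups and, for Rabepk, 8 arrays lie under the filter, so the values are descriptions of the time course. The pair was chosen because both rise with tunicamycin, and that same rise enters the correlation and the ranks of the pair.

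The promoter letters were also set against the arrays. The ER stress response element was in a window of 35 genes, Hspa5 included, and 10 of the others were tested. After 8 h 6 of 10 rose and 0 fell in CHOP-/- cells (median 1.14), where 7.34% of all genes rose, and the same 6 rose and 0 fell in wild type cells (median 1.13), where 9.69% did. They were Creld2, Ero1b, Dnajc3, Hsp90b1, Pdia6 and the zinc finger gene Zfp57 (1.78 in CHOP-/- and 1.83 in wild type cells). Without wild type arrays A and B the wild type calls of Pdia6 (1.11, adjusted p = 0.0789) and Zfp57 (1.75, adjusted p = 0.0517) ended. Calls over all genes in wild type cells at 8 h then fell from 945 to 296. Canx, the lectin chaperone calnexin, has the element too and had 0.23 in CHOP-/- (adjusted p = 0.538) and 0.04 in wild type cells (adjusted p = 0.940). The run ACGTGAGTT was in a window of 22 genes, this pair included, and of the 4 others tested 0 were called in either genotype.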

How the data were processed

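Per the labels, the arrays measured total RNA of mouse embryonic fibroblasts. The deposited table holds linear signal intensities for 12488 probe sets. From the values, every array has the same 2% trimmed mean (250.1 to 250.2), so the authors' intensity values were scaled to a common level. The method and software are not named in the labels or files used. Array medians were 48.2 to 72.6, and the number of arrays limits the precision.

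Probe sets with several genes (396), with none (1237) and controls (66, in part already among these) were left out, which kept 10833. The brightest probe set stood for a gene of 8251, matched to RefSeq by gene ID. Signals plus 5.7 (the 20th percentile) were taken to log2 and quantile normalized. Genes with a mean above the 40th percentile (5.10, a signal of 28.5) were tested, 5665 in all. limma 3.58.1 in R 4.3.3 fitted 6 group means (lmFit, eBayes with trend; residual df 18), with Benjamini-Hochberg adjustment within each contrast and calls at 0.05. The median SE was 0.189 log2. The fit was tested on simulated data. "At least" folds use the filter signal as the level of untreated Rabepk.

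Letters were taken to pair arrays where all 4 correlations exceeded 0.1: wild type 4 h with untreated (0.314 to 0.554), 8 h with untreated (0.406 to 0.618) and 8 h with 4 h (0.25 to 0.613), and CHOP-/- with wild type at 8 h (0.288 to 0.545). Between wild type 8 h and 4 h, the same letter was not the best match for A (0.25) or B (0.381). Alternatives were the pseudocount, filter, normalization, array weights, letter block, fits of the compared groups alone, and arrays left out. The fits without wild type arrays A and B, and with the block in 2 groups, were added after seeing the data. Members and gene lists were chosen with earlier results of these data known. From each list up to 4 genes with the smallest adjusted p were named, besides any called against the others, called neighbours and the 5 genes most like each member. Sec63, Dnajc10, Hsp90b1 in CHOP-/- and wild type cells, Canx, Zfp57 and Xbp1 in wild type cells fall partly outside that rule and were named after their values were seen.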

Additional observations from a re-analysis of the deposited data

Results flagged for a closer look

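Ddit3, the gene deleted in CHOP-/- cells, responded differently in the genotypes: the fitted difference in response at 8 h was -3.43 log2 (SE 0.495, limma adjusted p = 0.00255). Of the CHOP-/- arrays 3 of 4 lay under the filter signal of 28.5, untreated as well as at 8 h, so this size and its error are not exact. Without wild type arrays A and B 0 genes passed the 8 h response test, so the Ddit3 call ended. The wild type difference from untreated was 3.87 log2 at 8 h, and Ddit3 had lower signals in CHOP-/- than in wild type cells in 4 of 4 arrays at each time. Neither Hspa5 nor Rabepk passed such a test. In 18 groups of 4 arrays of Hspa5, Rabepk and Ddit3, no array stood apart by Dixon's 95% criterion.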

How the results depend on the processing

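Hspa5 differences near 0 changed sign without passing a test. CHOP-/- minus wild type was -0.18 untreated without further normalization and -0.23 with median centring, and at 8 h -0.016 and -0.031. The Hspa5 response difference at 4 h was 0.065 and 0.096 under these settings. At 8 h it was 0.16 without further normalization, 0.20 with median centring and -0.024 with array weights. With 1 array left out at a time, CHOP-/- minus wild type for Hspa5 lay between -0.050 and 0.083 in untreated cells, between -0.29 and -0.08 after 4 h, and between -0.020 and 0.040 after 8 h. Its response difference lay between -0.30 and -0.09 (4 h) and between -0.070 and 0.062 (8 h). For Rabepk the genotype difference lay between -0.90 and -0.37 (4 h) and between -0.50 and -0.29 (8 h), and the response difference between -1.26 and -0.72 (4 h) and between -0.93 and -0.58 (8 h). With median centring the Hspa5 change was 0.41 in wild type cells at 4 h and 0.95 in CHOP-/- cells at 8 h. The fitted Rabepk changes follow the pseudocount: for wild type 3.52 (4 h) and 5.24 (8 h) with 1, and 2.44 and 4.05 with 16, which gave 3.45 in CHOP-/- cells at 8 h. With the replicate block in the 2 groups compared at 8 h, Rabepk had -0.38 (adjusted p = 0.045), and without pair D -0.42, while Hspa5 without pair D had -0.019. No other setting called a genotype or response difference of either gene, and the block changed no other call of theirs. The filter at the 60th percentile left Rabepk out.

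Counts of called genes moved by more than 1.5 times in several comparisons. Wild type at 4 h (121) gave 80 with median centring, 191 with weights, 70 with the compared groups alone and 193 with the replicate block in those 2 groups (the 2-group block). Wild type at 8 h (945) gave 1469 with weights and 1633 with the 2-group block. CHOP-/- at 4 h (86) gave 55 without the filter, 49 without further normalization, 38 with median centring, 21 with the compared groups and 8 with the 2-group block, and at 8 h (792) 516 with the 2-group block. CHOP-/- against wild type untreated (56) gave 88 with weights, 23 with the compared groups and 7 with the 2-group block, at 4 h (138) 54 with the compared groups, and at 8 h (236) 155 with median centring, 545 with weights and 654 with the 2-group block. The block in the fit of all 24 arrays moved none of these counts by over 1.5 times (for example 921 for CHOP-/- at 8 h and 347 between the genotypes at 8 h). Without wild type arrays A and B the counts were 21 and 296 for wild type at 4 h and 8 h, and 37, 37 and 115 between the genotypes at the 3 times. Response differences gave 0 or 1 genes at 4 h and 0 to 5 at 8 h. Leaving out 1 array at a time gave 62 to 115 and 722 to 818 for wild type, and 49 to 67 and 579 to 739 for CHOP-/-, at 4 h and 8 h, and 35 to 52, 78 to 143 and 146 to 205 between the genotypes.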
